A study of Mus musculus with 16 samples.

Results

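Ribosome biogenesis and nucleolar genes encode the RNA polymerase I subunits, small nucleolar ribonucleoproteins and assembly factors that make and mature ribosomes. A list of 48 such genes was matched by gene symbol to Affymetrix arrays of mouse small cell lung cancer (mSCLC) cells, with the probe set of highest mean over the 16 arrays standing for each gene. Of the 48, 44 were measured, and all 44 passed the floor on dim signals, among 8777 genes tested in all. Dkc1, Nob1 and Nat10 had no probe set with a single symbol in the platform annotation used here, and the probe set of Mrto4 carried other symbols too. The study asked what the transcription factor Nfib does as an oncogene in small cell lung cancer, and set it beside Mycl1 (L-Myc, symbol Mycl), a member of the MYC family.

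The cells were 2 lines, 3583T3 and 3151T4, each grown from a dissociated mouse tumour, and each was measured in 4 forms with 2 arrays per form. Control cells were untransfected. Nfib cells carried the retroviral vector MSCV-Nfib-PGK-Neo, with a FLAG-tagged mouse Nfib cDNA and selection with G418. Mycl1 cells carried MSCV-L-myc-PGK-Puro and were selected with puromycin, and Nfib+Mycl1 cells were labelled as expressing both cDNAs. The controls carried no vector and met no drug, so vector and selection cannot be told apart from the cDNA in any comparison with control. The same holds between vector groups, since the Nfib and Mycl1 vectors carry different resistance genes and Nfib+Mycl1 cells have 1 vector more than Nfib cells. Expression is driven by the viral promoter, and the labels do not say whether the replicates were separate cultures, so p-values cover only how these arrays vary, and that variation may be technical.

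Ribosome synthesis starts in the nucleolus, where RNA polymerase I transcribes the long precursor of ribosomal RNA. Small nucleolar ribonucleoproteins (snoRNPs) guide its methylation, pseudouridylation and early cleavage, and separate sets of assembly factors then build the small and the large subunit. MYC family proteins, which bind DNA with MAX at the E-box CACGTG, are known as activators of genes at each of these steps, and enlarged or numerous nucleoli are a common mark of tumours with high MYC activity.

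The E-box was searched on both strands, on which it reads the same, in promoter windows running from 250 bases before to 50 bases after each start in RefSeq (build GRCm38.p6). Of the 44 genes, 39 had a window, and 9 of these (23.1%) held the motif, beside 12.0% of the tested genes with a window and 8.91% of all protein-coding genes. The 9 were Imp4, Nop2, Grwd1, Ltv1, Pes1, Mybbp1a, Tsr1, Nle1 and Wdr43. A match is a description of letters, not a binding site. The 30 bases around the motif are shown for the 6 of them that passed the test of Mycl1 against control cells described below. Imp4, Grwd1 and Ltv1 did not pass it and are not shown. Each stretch is read 5′ to 3′ on the gene's strand with the E-box in capitals.
Mybbp1a: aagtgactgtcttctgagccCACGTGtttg
Tsr1: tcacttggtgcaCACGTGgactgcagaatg
Wdr43: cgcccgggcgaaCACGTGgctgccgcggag
Pes1: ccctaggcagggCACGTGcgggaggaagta
Nle1: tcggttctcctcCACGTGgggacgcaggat
Nop2: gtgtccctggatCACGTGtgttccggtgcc

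The Mybbp1a stretch lies at chr11:72441347-72441376 on the plus strand, and that of Tsr1 at chr11:74898092-74898121 on the plus strand. The Wdr43 stretch is chr17:71616220-71616249 (plus strand) and the Pes1 stretch chr11:3963965-3963994 (plus strand). Nle1 is read from the minus strand at chr11:82908355-82908384, and Nop2 from the plus strand at chr6:125131811-125131840. In Nop2 the motif begins at position -60, before the start. In the other 5 it begins after the start, at position 40 in Mybbp1a, 24 in Tsr1, 17 in Wdr43, 2 in Pes1 and 23 in Nle1, and so inside the transcribed sequence. The 9 genes with the motif had a median log2 difference between Mycl1 and control cells of 0.72, and 6 of them passed the test described next. The 30 without it had a median of 0.64, and 14 passed. The ranges overlapped, from 0.49 to 1.55 with the motif and from 0.08 to 1.34 without it. For Nfib+Mycl1 against Nfib cells the medians were 1.05 with the motif (8 of 9 called) and 0.69 without it (19 of 30). For Mycl1 against control cells within 3151T4 they were 0.95 (9 of 9) and 0.77 (24 of 30). The ranges overlapped there too, and genes with and without the motif were not tested against each other.

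All expression values are log2 array signals. Differences are log2 differences with their standard error (SE) from a linear model fitted with limma across all genes, with 4 arrays per vector and the line as a term, and a gene was called changed at a Benjamini-Hochberg adjusted p under 0.05 over the 8777 genes. Signals of different genes come from different probes and are not ranked against each other.

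The vectors were checked on the arrays first. Of 3 Mycl probe sets, 1 followed the Mycl1 vector: it read 2.24 to 2.47 on the control arrays and 9.08 to 10.82 on the Mycl1 arrays. The reading did not match the label on 2 arrays. For 3583T3, the library labelled Nfib replicate 2 read 10.22, and the one labelled Nfib+Mycl1 replicate 2 read 2.67. Across all genes, the library labelled 3583T3 Nfib replicate 2 correlated best with 3583T3 Nfib+Mycl1 replicate 1, and the library labelled 3583T3 Nfib replicate 1 with 3583T3 Nfib+Mycl1 replicate 2. The 2 arrays whose Mycl reading went against the label were kept as labelled, and results are also given without them. No Nfib probe set separated the Nfib arrays from the rest, so the Nfib label has no such check here. Of 3 Mycn probe sets, 1 read 2.03 to 2.56 on the control arrays and 12.19 to 13.26 on every array with a vector. Its part in the differences from control was not tested. The other 2 did not rise in this way. On all arrays 1 of them read 2.94 to 3.42. The last read 3.31 to 5.39 on control arrays and 2.81 to 4.93 on arrays with a vector.

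Other cell types were checked as well. The summed linear signal of 15 macrophage and leukocyte markers was 8961 to 15772 on the 3583T3 control arrays and 3760 to 4066 on the 3151T4 control arrays, against 109 to 844 on the arrays with a vector, and all 14 tested markers were called lower in Mycl1 than in control cells. In bulk RNA, fewer cells of a type and less RNA per cell cannot be told apart. Between vector groups 0 of the 14 markers were called by limma for Mycl1 against Nfib and for Nfib+Mycl1 against Nfib. At an unadjusted p under 0.05 were 2 and 0 of them, against 35.9% and 34.0% of all genes. Fibroblast markers differed between the vector groups. Of 10 tested, 6 were called higher with Nfib than in control cells, 2 lower with Mycl1 and 1 higher with Nfib+Mycl1. Between vector groups 5 were lower with Mycl1 than with Nfib, and 1 was lower with Nfib+Mycl1 than with Nfib. Pdgfra, a growth factor receptor of fibroblasts, differed by -3.85 ± 0.46 (adjusted p = 0.000108) and -1.76 ± 0.46 (adjusted p = 0.0227) in the last 2 comparisons. Dcn, a matrix proteoglycan, differed by -4.87 ± 0.73 (adjusted p = 0.000506) and -1.60 ± 0.73 (adjusted p = 0.133). Their summed linear signal was 11663 to 24581 on the 3583T3 arrays and 17815 to 45049 on the 3151T4 arrays, where the Nfib arrays were highest. The part of either cell type in the results was not tested. Of 10 neuroendocrine markers, which define the tumour type, 8 had a probe set and 4 passed the floor on dim signals. Chga, Chgb, Syp and Dll3 did not exceed a log2 signal of 4 in any group, and Uchl1 and Ncam1 did in all. Uchl1 was lower with Nfib (-1.73 ± 0.35, adjusted p = 0.00529) and Scg2 with Mycl1 (-0.84 ± 0.24, adjusted p = 0.035) than in control cells. Scg2 exceeded 4 in the control and Nfib cells of 3151T4 alone, so its call rests on signals near the floor. Insm1 went the other way with Mycl1, by 0.91 ± 0.31, and did not pass (adjusted p = 0.0702). It was called higher with Mycl1 than with Nfib (1.21 ± 0.31, adjusted p = 0.0141). Insm1 exceeded 4 in 3583T3 Mycl1 cells alone. Of 9 proliferation markers, 1 (Mcm5) was called higher in Mycl1 than in control cells. Mcm5 was also called higher with Nfib (0.52 ± 0.14, adjusted p = 0.0327) and with Nfib+Mycl1 (1.25 ± 0.14, adjusted p = 8.44e-05). Tyms too was called higher with Nfib+Mycl1 (0.56 ± 0.20, adjusted p = 0.0425). It did not exceed 4 in 3151T4 control cells, so its call rests in part on signals near the floor.

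Mycl1 cells had higher signals of the ribosome biogenesis genes than control cells. The difference was positive for 44 of 44 genes, as deposited and under each of the other scalings of the arrays that were tried, and 22 genes were called higher and 0 lower. Over all genes tested, 6.63% were called higher and 4.69% lower, and 53.4% had a positive difference. The median difference was 0.66 over the 44 genes and 0.03 over all genes, and 8 of the 44 rose at least 2-fold, as did 1.37% of all genes. Earlier results of these data already showed a rise of MYC targets with Mycl1, so the direction is not independent evidence. The 22 calls were 3 of the 4 genes listed under RNA polymerase I and regulators (Polr1b, Mybbp1a and Pprc1), 5 of 7 snoRNP genes, 4 of 10 small subunit factors, 10 of 20 large subunit factors and 0 of the 3 multifunctional nucleolar proteins Ncl, Npm1 and Ddx21. Without the 2 arrays against their labels, which belong to the other groups of the fit, 35 of the 44 were called higher (10.4% of all genes) and the median stayed at 0.66.

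The number of calls rested on single arrays, while none of the 22 called genes changed sign under any setting tried. Counts with 1 array left out, here and further on, have no share of all genes beside them. Whether a fall in such a count is particular to these genes was not tested. Among 3583T3 arrays, leaving out Mycl1 replicate 1 or control replicate 1 gave 5 calls in place of 22, and leaving out control replicate 2 gave 11. Among 3151T4 arrays, leaving out Mycl1 replicate 3 gave 5, control replicate 3 gave 3, and Mycl1 replicate 4 or control replicate 4 gave 1. With separate means for each line and vector, 37 of the 44 were called (12.2% of all genes called higher).

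**Figure D1:**
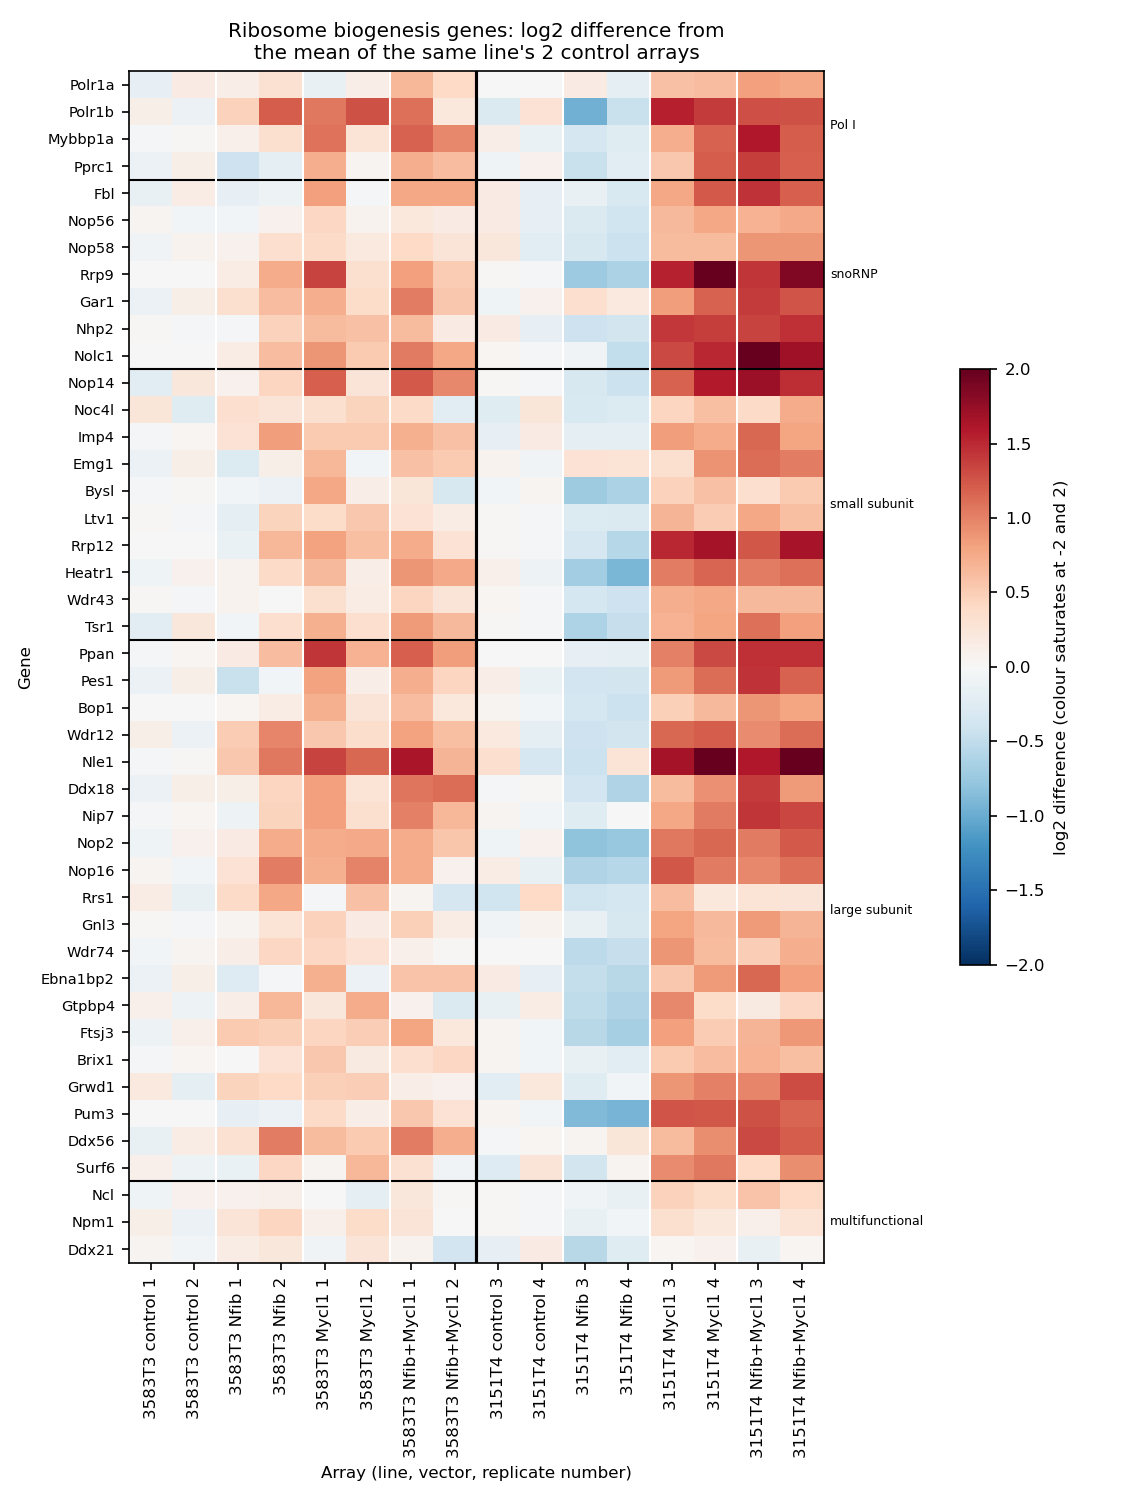
Heat map of the log2 difference of each of the 44 genes (vertical axis, by role) on each of the 16 arrays (horizontal axis) from the mean of the same line's control arrays; red is higher, blue lower. The 4 arrays of 3151T4 with Mycl1 or Nfib+Mycl1 are red in nearly all genes, the 3151T4 Nfib arrays are mostly blue, and Ncl, Npm1 and Ddx21, shown by their brightest probe sets, stay pale.

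Genes of RNA polymerase I came first in the pathway. Polr1b, a core subunit of the enzyme, had signals of 7.88 and 7.65 on the 3583T3 control arrays, 8.22 and 8.97 with Nfib, 8.83 and 9.03 with Mycl1 and 8.86 and 7.97 with Nfib+Mycl1. In 3151T4 its signals were 6.36 and 6.95 in control cells, 5.69 and 6.20 with Nfib, 8.21 and 8.04 with Mycl1 and 7.95 and 7.93 with Nfib+Mycl1. Every Mycl1 array lay above every control array of its line. The difference between Mycl1 and control cells was 1.32 ± 0.37 (SE, adjusted p = 0.0343). The higher Nfib array in 3583T3, 8.97, was the one that carried the Mycl signal, and the lower Nfib+Mycl1 array there, 7.97, was the one that lacked it.

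Mybbp1a, a nucleolar protein that acts in ribosomal RNA transcription and processing, read 10.23 and 10.28 in 3583T3 control cells, 10.35 and 10.58 with Nfib, 11.34 and 10.53 with Mycl1 and 11.44 and 11.22 with Nfib+Mycl1. The 3151T4 signals were 10.00 and 9.74 in control cells, 9.53 and 9.63 with Nfib, 10.59 and 11.05 with Mycl1 and 11.46 and 11.09 with Nfib+Mycl1. Mybbp1a was higher with Mycl1 by 0.82 ± 0.20 (SE, adjusted p = 0.0231), with no overlap between Mycl1 and control arrays within either line. Polr1a, the largest subunit, read 8.64 and 8.98 in 3583T3 control cells and 8.66 and 8.94 with Mycl1, which overlap, and 8.18 and 8.20 against 8.78 and 8.80 in 3151T4, which do not. Its difference over both lines was 0.30 ± 0.17 and did not pass (adjusted p = 0.243), while its 2 dimmer probe sets were called higher, by 0.66 ± 0.16 (adjusted p = 0.0251 over all probe sets) and 0.77 ± 0.19 (adjusted p = 0.0278). Pprc1 is a coactivator of the PGC-1 family known for mitochondrial rather than nucleolar genes. It read 9.74 and 9.99 in 3583T3 control cells against 10.59 and 9.92 with Mycl1, and 8.19 and 8.36 against 8.81 and 9.49 in 3151T4, a rise of 0.63 ± 0.19 (SE, adjusted p = 0.0459) with overlap in 3583T3 alone.

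Among the snoRNP genes, Gar1, Nhp2, Nolc1, Fbl and Rrp9 rose with Mycl1, and Nop56 (0.48 ± 0.16, adjusted p = 0.0668) and Nop58 (0.46 ± 0.18, adjusted p = 0.107) did not pass. Gar1 and Nhp2 are core proteins of the H/ACA particles that guide pseudouridylation. Gar1 signals were 10.03 and 10.26 in 3583T3 control cells, 10.46 and 10.76 with Nfib, 10.87 and 10.51 with Mycl1 and 11.17 and 10.69 with Nfib+Mycl1. In 3151T4 they were 9.94 and 10.10, then 10.35 and 10.21, 10.86 and 11.19, and 11.42 and 11.28 in the same order of groups. Gar1 and Ddx56 were the 2 genes whose Nfib arrays too lay above the control arrays of both lines (13.0% of all genes), though the Nfib difference of Gar1 was 0.36 ± 0.17 and did not pass (adjusted p = 0.21). Nhp2 read 10.96 and 10.91 in 3583T3 control cells against 11.57 and 11.51 with Mycl1, and 10.44 and 10.11 against 11.68 and 11.67 in 3151T4. Its rise was 1.00 ± 0.26 (SE, adjusted p = 0.0274).

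Nolc1, a chaperone of snoRNPs, read 10.90 and 10.89 in 3583T3 control cells, 11.04 and 11.51 with Nfib, 11.77 and 11.42 with Mycl1 and 11.93 and 11.66 with Nfib+Mycl1. Its 3151T4 signals were 9.69 and 9.62, then 9.58 and 9.16, 10.98 and 11.16, and 11.70 and 11.35. The Mycl1 arrays cleared the controls in both lines, by 1.06 ± 0.27 in the fit (SE, adjusted p = 0.0248). Fbl, fibrillarin, is the methyltransferase of the box C/D particles. It read 11.35 and 11.65 in 3583T3 control cells, 11.34 and 11.41 with Nfib, 12.33 and 11.46 with Mycl1 and 12.28 and 12.27 with Nfib+Mycl1, so that Mycl1 replicate 2 fell between the controls. In 3151T4 it read 10.82 and 10.48, then 10.51 and 10.34, 11.43 and 11.87, and 12.10 and 11.84, with a clear gap between the arrays with and without Mycl1. Its difference over both lines was 0.70 ± 0.19 (SE, adjusted p = 0.0342).

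Rrp9, a snoRNP protein needed for the early cleavages of the precursor, had the second largest difference of the 44. Its signals were 7.82 and 7.85 in 3583T3 control cells, 7.98 and 8.57 with Nfib, 9.18 and 8.15 with Mycl1 and 8.65 and 8.34 with Nfib+Mycl1. In 3151T4 they were 6.54 and 6.51, then 5.80 and 5.89, 8.06 and 8.67, and 7.95 and 8.37. The rise with Mycl1 was 1.34 ± 0.38 (SE, adjusted p = 0.036).

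Of the 10 small subunit factors, Nop14, Rrp12, Tsr1 and Wdr43 rose. Nop14, a factor of the small subunit processome, read 8.91 and 9.37 in 3583T3 control cells, 9.22 and 9.57 with Nfib, 10.34 and 9.39 with Mycl1 and 10.36 and 10.09 with Nfib+Mycl1. In 3151T4 the signals were 8.73 and 8.68, then 8.38 and 8.27, 9.88 and 10.29, and 10.41 and 10.18. Nop14 rose by 1.06 ± 0.26 (SE, adjusted p = 0.0237), although the gap between Mycl1 replicate 2 and control replicate 2 in 3583T3 was small. Rrp12, which acts in maturation and export of the subunits, read 6.44 on both 3583T3 control arrays against 7.24 and 7.03 with Mycl1, and 4.98 and 4.94 against 6.47 and 6.62 in 3151T4. Its rise was 1.14 ± 0.30 (SE, adjusted p = 0.0299), from signals near the floor in 3151T4.

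Tsr1, a late assembly factor, read 9.32 and 9.76 in 3583T3 control cells against 10.26 and 9.87 with Mycl1, and 9.27 and 9.23 against 9.94 and 10.04 in 3151T4, a rise of 0.63 ± 0.19 (SE, adjusted p = 0.0416). Wdr43, an early processome protein, read 11.69 and 11.65 against 12.00 and 11.82 in 3583T3 and 11.13 and 11.05 against 11.82 and 11.87 in 3151T4. The Wdr43 rise was 0.49 ± 0.15 (SE, adjusted p = 0.0423). The promoter stretches of these genes are among those shown above. The other 6 small subunit factors did not pass. Heatr1, which links transcription to early processing, differed by 0.74 ± 0.26 (adjusted p = 0.0767) and Imp4 by 0.65 ± 0.21 (adjusted p = 0.0519). Bysl, Ltv1, Emg1 and Noc4l had differences from 0.45 to 0.52.

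Large subunit factors gave 10 of the 22 calls: Ppan, Nle1, Nip7, Brix1, Pes1, Ddx56, Nop2, Ddx18, Nop16 and Gnl3. Ppan is a conserved early assembly factor of the large subunit. Its signals were 8.35 and 8.41 in 3583T3 control cells, 8.54 and 9.00 with Nfib, 9.81 and 9.07 with Mycl1 and 9.57 and 9.22 with Nfib+Mycl1. In 3151T4 they were 7.86 and 7.88, then 7.70 and 7.69, 8.88 and 9.20, and 9.34 and 9.33. In both lines the Mycl1 arrays lay above all control and Nfib arrays. The adjusted p of Ppan, 0.00698 in limma, was the lowest among the 44 genes in this comparison.

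Nle1, a Notchless homologue that takes part in a remodelling step of the large subunit precursor, had the largest fitted difference of the 44, 1.55 ± 0.34 (SE, adjusted p = 0.0176). It read 5.95 and 5.99 in 3583T3 control cells, 6.51 and 7.03 with Nfib, 7.32 and 7.13 with Mycl1 and 7.61 and 6.65 with Nfib+Mycl1. The 3151T4 signals were 6.28 and 5.59, then 5.51 and 6.21, 7.60 and 7.97, and 7.53 and 8.34. Its Mycl1 arrays cleared all controls in both lines, while its Nfib arrays in 3151T4 overlapped the controls.

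Pes1, Bop1 and Wdr12 form the PeBoW complex, which is needed for maturation of the large subunit RNA. Pes1 read 9.25 and 9.49 in 3583T3 control cells, 8.93 and 9.32 with Nfib, 10.17 and 9.51 with Mycl1 and 10.09 and 9.81 with Nfib+Mycl1. In 3151T4 it read 9.09 and 8.82, then 8.57 and 8.58, 9.80 and 10.07, and 10.40 and 10.13. Of the complex, Pes1 rose (0.73 ± 0.20, adjusted p = 0.0321), and Bop1 (0.53 ± 0.17, adjusted p = 0.0584) and Wdr12 (0.81 ± 0.28, adjusted p = 0.0685) did not pass. Without the 2 arrays against their labels, Bop1 (adjusted p = 0.0178) and Wdr12 (adjusted p = 0.0228) were called too, at 0.53 ± 0.14 and 0.81 ± 0.23.

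Nip7, an RNA-binding factor of the large subunit pathway, read 11.09 and 11.18 in 3583T3 control cells against 11.96 and 11.46 with Mycl1, and 10.67 and 10.55 against 11.38 and 11.65 in 3151T4, a rise of 0.74 ± 0.18 (SE, adjusted p = 0.0226). Brix1 is a factor of a protein family shared with Ppan and Imp4. It read 11.75 and 11.82 against 12.32 and 11.96 in 3583T3 and 11.58 and 11.46 against 12.05 and 12.14 in 3151T4, a rise of 0.46 ± 0.12 (SE, adjusted p = 0.029). Nop2, an RNA methyltransferase of the nucleolus, rose by 0.93 ± 0.27 (SE, adjusted p = 0.0398), and the helicases Ddx56 and Ddx18 rose by 0.68 ± 0.19 (adjusted p = 0.0381) and 0.66 ± 0.20 (adjusted p = 0.0438). Nop16 rose by 1.00 ± 0.30 (adjusted p = 0.0459), and Gnl3, nucleostemin, by 0.52 ± 0.16 (adjusted p = 0.0488). The other 10 large subunit factors did not pass, with differences from 0.35 (Rrs1) to 0.81 (Wdr12).

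The nucleolar proteins Ncl (nucleolin) and Npm1 (nucleophosmin) and the helicase Ddx21, each with several roles in the nucleolus, had the smallest differences by their brightest probe sets. Ncl read 12.72 and 12.88 in 3583T3 control cells against 12.79 and 12.62 with Mycl1, and 12.59 and 12.54 against 13.03 and 12.93 in 3151T4. Npm1 read 12.95 and 12.72 against 12.94 and 13.20 in 3583T3, and 12.97 and 12.91 against 13.25 and 13.15 in 3151T4. In 3583T3 the groups of both genes overlapped, and in 3151T4 they did not. Over both lines the differences were 0.16 ± 0.12 for Ncl, 0.25 ± 0.11 for Npm1 and 0.08 ± 0.15 for Ddx21, and none of these 3 passed (adjusted p = 0.398, 0.141 and 0.759). Over the 44 genes, the difference between Mycl1 and control cells was smaller at higher mean signal (Pearson correlation -0.67). GCRMA compresses very high signals, and the part of signal level in the small differences of these 3 genes was not tested. Dimmer probe sets of the same genes gave other values. The second probe set of Ddx21, with a mean signal of 8.74 against 12.57 for the first, rose by 1.07 ± 0.27 (adjusted p = 0.0271 over all probe sets). Of the 3 further probe sets of Ncl the dimmest differed by 0.83 ± 0.28 (adjusted p = 0.0673), and the other 2 by 0.17 ± 0.12 and 0.28 ± 0.13. The further probe set of Npm1 differed by 0.19 ± 0.10 (adjusted p = 0.201).

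**Figure D2:**
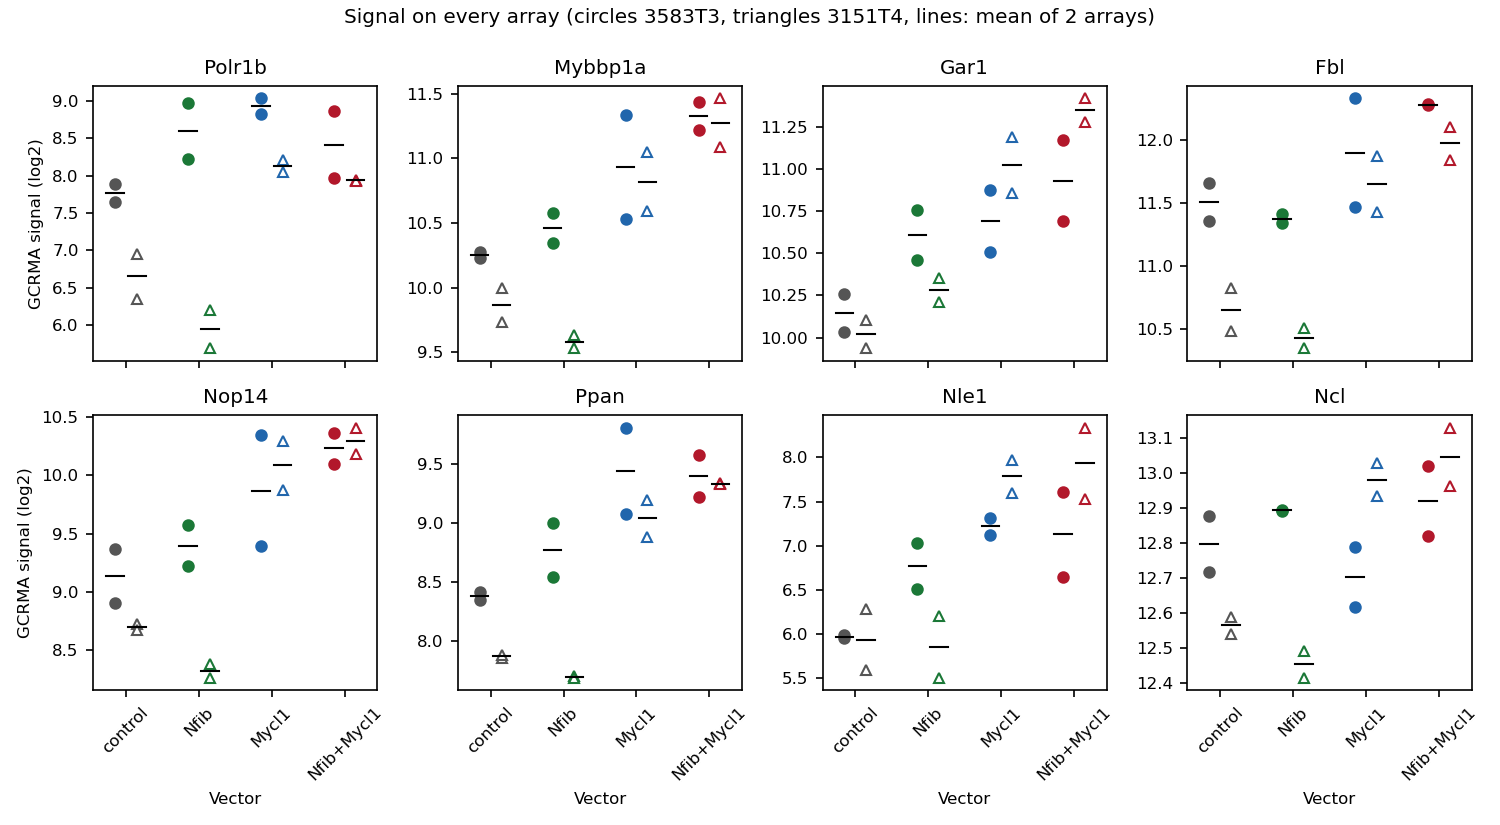
Log2 signal (vertical axes) of 8 of the genes on every array, by vector (horizontal axes), with circles for 3583T3, triangles for 3151T4 and short lines at the mean of 2 arrays. The axes differ in range between genes: Polr1b spans 5.69 to 9.03, and Ncl 12.42 to 13.13.

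The genes were also higher in cells labelled as carrying both cDNAs. Nfib+Mycl1 cells had 31 of the 44 genes called higher than control cells and 0 lower, against 16.3% of all genes called higher and 14.7% lower, and the median difference was 0.81. By role, the calls took in 3 of the 4 genes listed under RNA polymerase I and regulators and 7 of 7 snoRNP genes. They also took in 8 of 10 small subunit factors, 13 of 20 large subunit factors and 0 of 3 of the multifunctional nucleolar proteins. Nle1 differed by 1.58 ± 0.34 (SE, adjusted p = 0.00445), Nolc1 by 1.39 ± 0.27 (adjusted p = 0.00221), Nop14 by 1.34 ± 0.26 (adjusted p = 0.00218) and Mybbp1a by 1.24 ± 0.20 (adjusted p = 0.000841). Polr1a rose by 0.66 ± 0.17 (adjusted p = 0.0094), and Polr1b, at 0.97 ± 0.37, did not pass (adjusted p = 0.0562). Both comparisons share the control arrays. The count was 19 without 3151T4 Nfib+Mycl1 replicate 3 and 20 without 3151T4 Nfib+Mycl1 replicate 4, and 37 without the 2 arrays against their labels (17.7% of all genes).

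**Figure D3:**
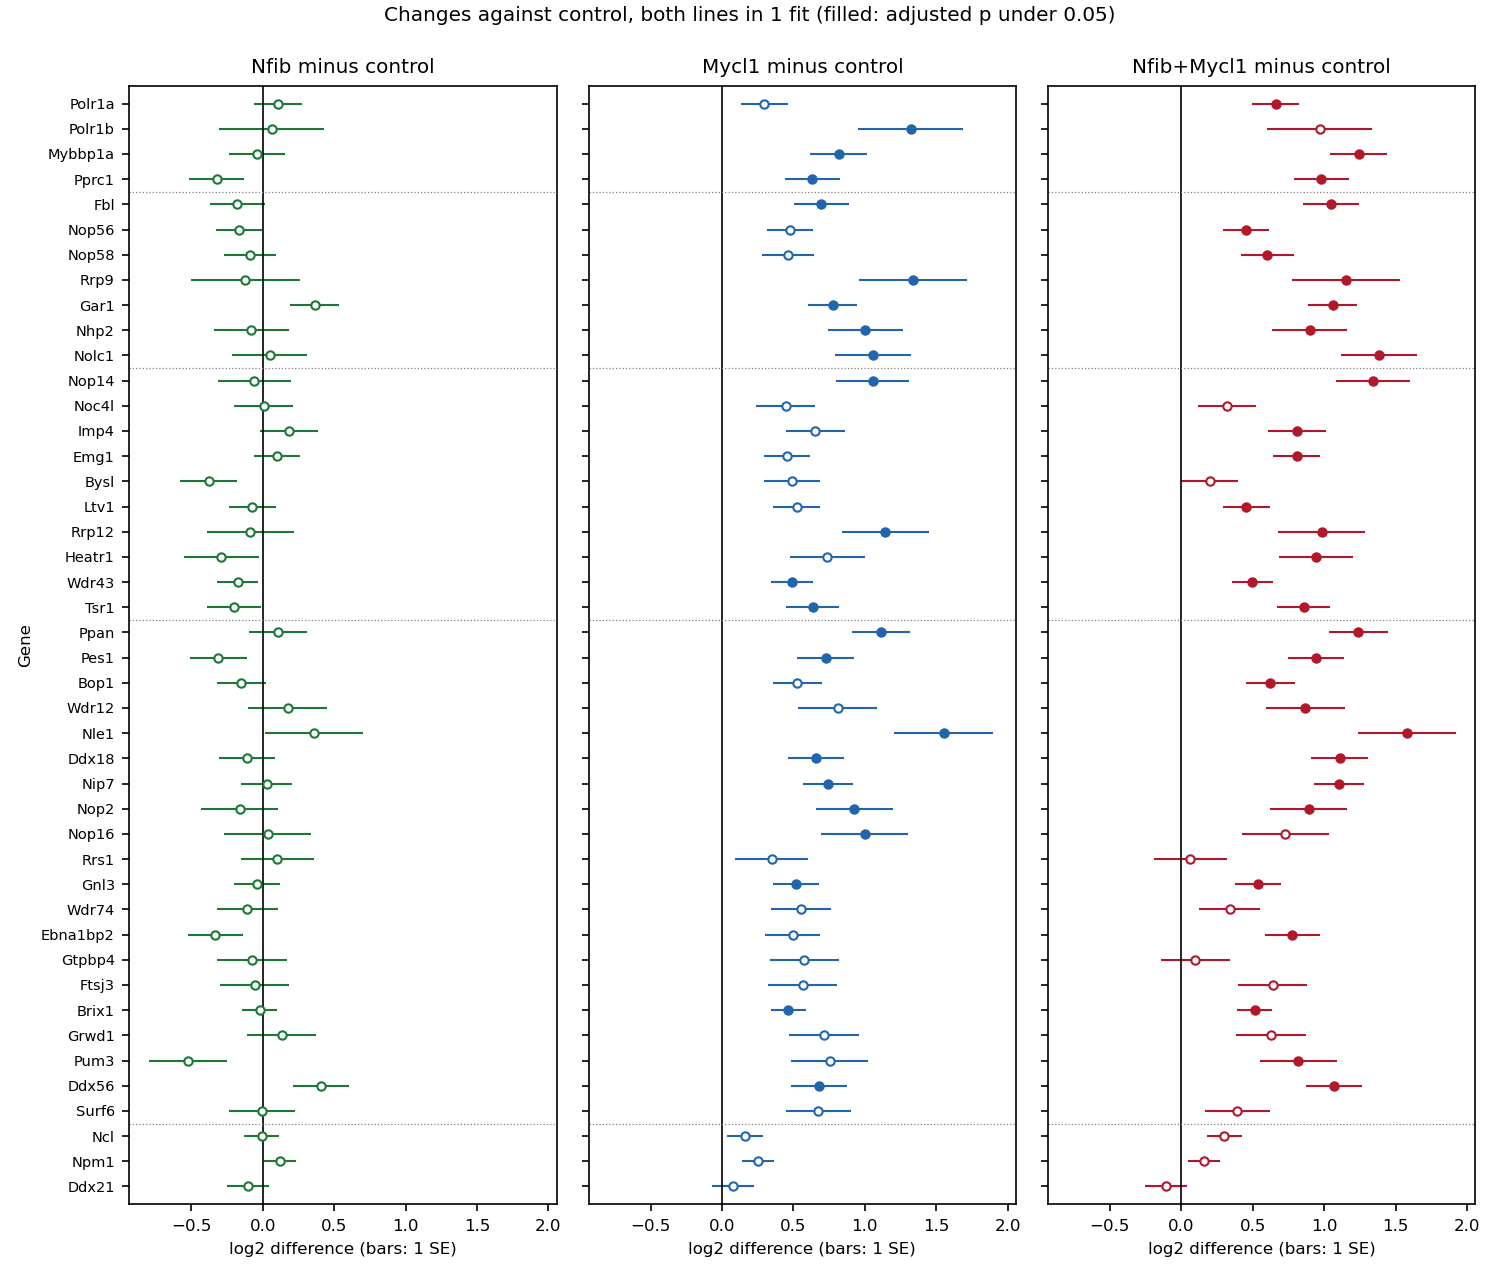
Fitted log2 difference from control (horizontal axes, bars of 1 SE) of each of the 44 genes (vertical axis, by role) for Nfib, Mycl1 and Nfib+Mycl1, both lines in 1 fit; filled points passed the adjusted p of 0.05. Filled points number 0, 22 and 31 from left to right.

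Set directly against each other, Nfib+Mycl1 and Mycl1 cells differed in 0 of the 44 genes by limma, with 4 at an unadjusted p under 0.05, all higher with both cDNAs: Ddx18 (0.45 ± 0.20), Mybbp1a (0.42 ± 0.20), Polr1a (0.36 ± 0.17) and Emg1 (0.35 ± 0.16). Of all genes, 3.77% were called in this comparison and 23.4% had an unadjusted p under 0.05. The adjusted p of these 4 genes was between 0.186 and 0.207. The median over the 44 was 0.06, and 0.20 without the 2 arrays against their labels, again with 0 calls. The interaction of Nfib and Mycl1, which asks whether the cDNAs together differ from the sum of their separate effects, was called in 0 of the 44, against 0.308% of all genes, with 2 at an unadjusted p under 0.05 (Pprc1, 0.67 ± 0.27, and Ebna1bp2, 0.61 ± 0.27). Its median over the 44 was 0.08. It was 0.34 without the 2 arrays against their labels, with 0 calls and 11 at an unadjusted p under 0.05, all positive, of which Nip7 (0.63 ± 0.20, adjusted p = 0.452) had the smallest p. Of the 14 macrophage markers, 10 were called in this interaction on all arrays, and their part in it was not tested.

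With Nfib alone no member passed the test over both lines. Nfib and control cells differed in 0 of the 44 genes by limma, with 1 (Gar1) at an unadjusted p under 0.05. Of all genes, 10.3% were called and 23.6% had an unadjusted p under 0.05. Of the 44 differences, 28 were below 0 (30 under either other scaling of the arrays). The extremes were Pum3 at -0.52 ± 0.27 (adjusted p = 0.264) and Ddx56 at 0.41 ± 0.19 (adjusted p = 0.22). Without the 2 arrays against their labels the median went from -0.06 to -0.25, with 7 of 44 above 0, 0 calls again and 7 at an unadjusted p under 0.05.

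The genes were higher with Mycl1 on top of Nfib as well. Nfib+Mycl1 cells had 30 of the 44 called higher than Nfib cells (8.89% of all genes), 0 lower (8.04%), and a median of 0.70. The largest differences were Nop14 (1.40 ± 0.26, adjusted p = 0.0106), Nolc1 (1.34 ± 0.27, adjusted p = 0.012), Pum3 (1.34 ± 0.27, adjusted p = 0.0122) and Pprc1 (1.30 ± 0.19, adjusted p = 0.00986). By role, 3 of the 4 genes listed under RNA polymerase I and regulators and 7 of 7 snoRNP genes were called. So were 8 of 10 small subunit factors and 12 of 20 large subunit factors. Between these groups 0 of the 14 macrophage markers and 1 of the 10 fibroblast markers (Pdgfra, lower) were called by limma, as given above. Both arrays against their labels stand in these groups. Without them 40 of 44 were called (13.1% of all genes) and the median was 1.01. Leaving out 3151T4 arrays gave 17 calls (Nfib replicate 3 out), 18 (Nfib+Mycl1 replicate 4 out), and 0 by limma with Nfib replicate 4 or Nfib+Mycl1 replicate 3 out.

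In Mycl1 cells set against Nfib cells, 30 of the 44 were called higher (11.1% of all genes) and 0 lower (10.7%), with a median of 0.68 and 44 of 44 differences positive. Rrp9 differed by 1.46 ± 0.38 (adjusted p = 0.0148), Pum3 by 1.28 ± 0.27 (adjusted p = 0.0052), Polr1b by 1.26 ± 0.37 (adjusted p = 0.025) and Rrp12 by 1.23 ± 0.30 (adjusted p = 0.0115). The count was 17 without 3151T4 Nfib replicate 3, 13 without 3151T4 Nfib replicate 4, 17 without 3151T4 Mycl1 replicate 4, and 37 without the 2 arrays against their labels (14.7% of all genes). These comparisons share the Nfib arrays. Across these and the comparisons of Mycl1 and Nfib+Mycl1 with control, 8 of the 44 genes were called in none: Ncl, Npm1, Ddx21, Rrs1, Noc4l, Grwd1, Gtpbp4 and Ftsj3. Of these, Ncl, Noc4l, Grwd1, Gtpbp4 and Ftsj3 were each called in at least 1 of the comparisons without the 2 arrays against their labels, always higher with Mycl1 or Nfib+Mycl1, and Npm1, Ddx21 and Rrs1 were not. These calls are those of the brightest probe sets. Of the 8 genes, 6 had a further probe set, and 5 of these (Noc4l, Gtpbp4, Grwd1, Ncl and Ddx21) had at least 1 called higher on all 16 arrays in at least 1 of the 4 comparisons. For Noc4l both further probe sets were called with Nfib+Mycl1 against Nfib, at 1.15 ± 0.22 and 0.90 ± 0.17 (adjusted p = 0.0121 for each over all probe sets), and that of Ddx21 was called in all 4. In the fit without the 2 arrays Ncl was higher with Nfib+Mycl1 than with Nfib by 0.44 ± 0.14 (limma adjusted p = 0.0287), and Ftsj3 by 1.01 ± 0.24 (limma adjusted p = 0.00742).

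The count of called genes was higher in 3151T4 than in 3583T3, and for most single genes the difference between lines did not pass its own test. In 3151T4, 35 of the 44 genes were called higher with Mycl1 than in control cells (7.77% of all genes), with a median of 0.78, and in 3583T3, 2 were called (0.855% of all genes), Ppan at 1.06 ± 0.24 (adjusted p = 0.0261) and Nop2 at 0.75 ± 0.18 (adjusted p = 0.0337), with a median of 0.46. The 3583T3 count was 9 without the 2 arrays against their labels (5.64% of all genes). The test of the difference between lines called 1 of the 44, Pum3, a nucleolar RNA-binding protein of the Pumilio family, against 0.889% of all genes. Pum3 read 9.36 on both 3583T3 control arrays against 9.75 and 9.50 with Mycl1, and 7.96 and 7.85 against 9.16 and 9.14 in 3151T4. Its rise was smaller in 3583T3 by 0.99 ± 0.23 on the log2 scale (adjusted p = 0.04), from a higher control signal. The count was 2, Pum3 and Nhp2, without the 2 arrays against their labels. The call of Pum3 was lost (a count of 0) without any of the 4 control arrays, the 4 arrays of 3151T4 Nfib and Nfib+Mycl1, the 2 Mycl1 arrays of 3151T4 or 3583T3 Mycl1 replicate 2. The difference between lines had the same sign, smaller in 3583T3, in 43 of 44 genes, with a median of -0.37.

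Single arrays moved the counts within lines too. In 3151T4 the Mycl1 count was 23 without control replicate 3, 17 without control replicate 4, 21 without Mycl1 replicate 3 and 14 without Mycl1 replicate 4. In 3583T3 it was 0 without either control replicate or without Mycl1 replicate 1, and 4 without Mycl1 replicate 2. It was 6 without either 3583T3 Nfib array, 5 without either 3583T3 Nfib+Mycl1 array, and 1 without any of the 4 arrays of 3151T4 Nfib and Mycl1, since all arrays share the estimate of spread. In levels alone, the Mycl1 arrays lay above both control arrays for 42 of 44 genes in 3151T4 (32.1% of all genes) and for 34 of 44 in 3583T3 (27.4%).

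**Figure D4:**
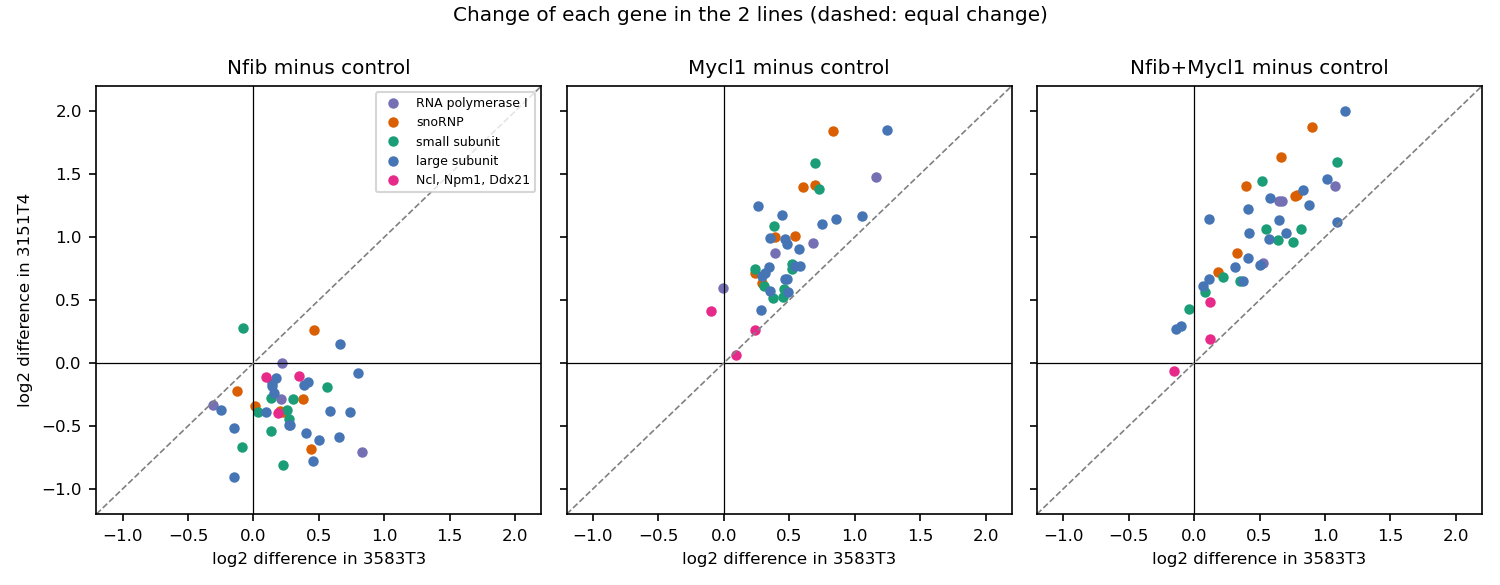
Log2 difference of each of the 44 genes from control in 3583T3 (horizontal axes) and 3151T4 (vertical axes), coloured by role, for Nfib, Mycl1 and Nfib+Mycl1; the dashed line marks an equal change. With Mycl1 and Nfib+Mycl1 nearly all points lie above the dashed line, and with Nfib nearly all lie below it.

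For Nfib+Mycl1 cells the counts stood in the same order. In 3151T4, 37 genes were called higher than control (14.6% of all genes) with a median of 1.03, and Nle1 had the largest difference of the 44, 2.00 ± 0.37 (adjusted p = 0.00158). In 3583T3, 13 were called (7.13% of all genes) with a median of 0.52, with Ddx18 the largest of those called at 1.09 ± 0.22 (adjusted p = 0.00467). The 3583T3 count was 19 without the 2 arrays against their labels (10.6% of all genes). With 1 array of 3583T3 left out, it was 0 (control replicate 1), 6 (control replicate 2) or 1 (Nfib+Mycl1 replicate 1). The difference between lines was called for Grwd1 (-1.03 ± 0.26, adjusted p = 0.0279), a chaperone of a ribosomal protein, and Nhp2 (-1.01 ± 0.26, adjusted p = 0.034), 2 of 44 against 1.66% of all genes. The count of 2 was 0 without the 2 arrays against their labels. It was 0 without 3583T3 control replicate 1, 3583T3 Nfib+Mycl1 replicate 2 or 3151T4 Nfib+Mycl1 replicate 4. It was 1 without 3583T3 control replicate 2 or any of the other 7 arrays of 3151T4.

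With Nfib alone most differences were below 0 in 3151T4, and in 3583T3 the 2 Nfib arrays differed. In 3151T4, 41 of 44 differences from control were below 0, as were 46.8% of all genes, and 4 genes were called lower (5.86% of all genes): Pum3 (-0.90 ± 0.16, adjusted p = 0.00144), Heatr1 (-0.81 ± 0.19, adjusted p = 0.00981), Nop2 (-0.78 ± 0.18, adjusted p = 0.00838) and Wdr43 (-0.39 ± 0.12, adjusted p = 0.0442). Pum3 read 7.96 and 7.85 in control and 7.02 and 6.98 in Nfib cells, Heatr1 9.06 and 8.86 against 8.26 and 8.04, and Nop2 9.72 and 9.90 against 9.01 and 9.06. In 34 of the 44 genes both Nfib arrays lay below both control arrays (27.4% of all genes). With 1 array of 3151T4 left out, the count of 4 was 2 (control replicate 3 or Nfib replicate 3) or 1 (Nfib replicate 4). It was 8 without the 2 arrays against their labels (7.94% of all genes), with Polr1b, Bysl, Nop16, Wdr74 and Ftsj3 called as well and Wdr43 not. The Mycn probe set that was high with every vector read 12.59 and 12.49 on these Nfib arrays, and the other 2 read 3.03 to 3.93.

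In 3583T3, 37 of 44 Nfib differences were above 0, as were 52.0% of all genes, with a median of 0.23. Without the array that carried the Mycl signal 29 were above 0, with a median of 0.09. On both arrays 1 gene was called (5.13% of all genes called higher), Wdr12, which read 9.94 and 9.71 in control and 10.33 and 10.79 in Nfib cells (0.74 ± 0.19, adjusted p = 0.0203). The count was 0 without 3583T3 control replicate 2 or Nfib replicate 2 and 6 without Nfib replicate 1. It was 0 by limma without the 2 arrays against their labels. The difference between lines in the Nfib effect was called for 4 of the 44 (2.75% of all genes called higher in 3583T3): Nop2 (1.23 ± 0.25, adjusted p = 0.00774), Wdr12 (1.13 ± 0.26, adjusted p = 0.0178), Ftsj3 (1.11 ± 0.28, adjusted p = 0.0263) and Heatr1 (1.04 ± 0.27, adjusted p = 0.0307). Without the 2 arrays Nop2 (0.95 ± 0.24, adjusted p = 0.022) and Ftsj3 (1.14 ± 0.27, adjusted p = 0.017) were called. The count of 4 was 9 without 3583T3 Nfib replicate 1 and 2 without 3583T3 control replicate 1, 3151T4 control replicate 3 or 3151T4 control replicate 4. It was 1 without 3583T3 control replicate 2, 3583T3 Nfib replicate 2, 3151T4 Nfib replicate 3 or 3151T4 Nfib replicate 4.

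The array-by-array medians show where these genes stood on each library. In 3583T3 the median difference of the 44 genes from the line's controls was 0.09 and 0.42 on the Nfib arrays, 0.64 and 0.32 on the Mycl1 arrays and 0.68 and 0.34 on the Nfib+Mycl1 arrays. In 3151T4 it was -0.35 and -0.36 with Nfib, 0.78 and 0.92 with Mycl1 and 1.03 and 0.97 with Nfib+Mycl1. The medians over all genes lay between -0.05 and 0.08 on every array. The array labelled 3583T3 Nfib replicate 2, which carried the Mycl signal, had 39 of the 44 genes above replicate 1, with a median gap of 0.31, against 50.2% of all genes. The array labelled 3583T3 Nfib+Mycl1 replicate 2, which lacked that signal, had 41 of 44 below replicate 1, with a median gap of -0.27, against 50.4% of all genes. In the other 6 pairs the median gap lay between -0.20 and 0.12. The widest of these was 3583T3 Mycl1, where both arrays carried the Mycl signal: replicate 2 had 31 of 44 genes below replicate 1, as had 62.8% of all genes. These gaps compare single arrays, with no test. Many genes did not follow the Mycl signal. In 3583T3 both Nfib+Mycl1 arrays lay above both Nfib arrays for 19 of the 44 genes, and below both for 6. No share of all genes was set beside these counts. The 19 were thus higher on the Nfib+Mycl1 array that lacked the signal than on the Nfib array that had it. Among them, Fbl read 12.27 on the former and 11.41 on the latter, and Ebna1bp2 read 11.28 and 10.66.

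**Figure D5:**
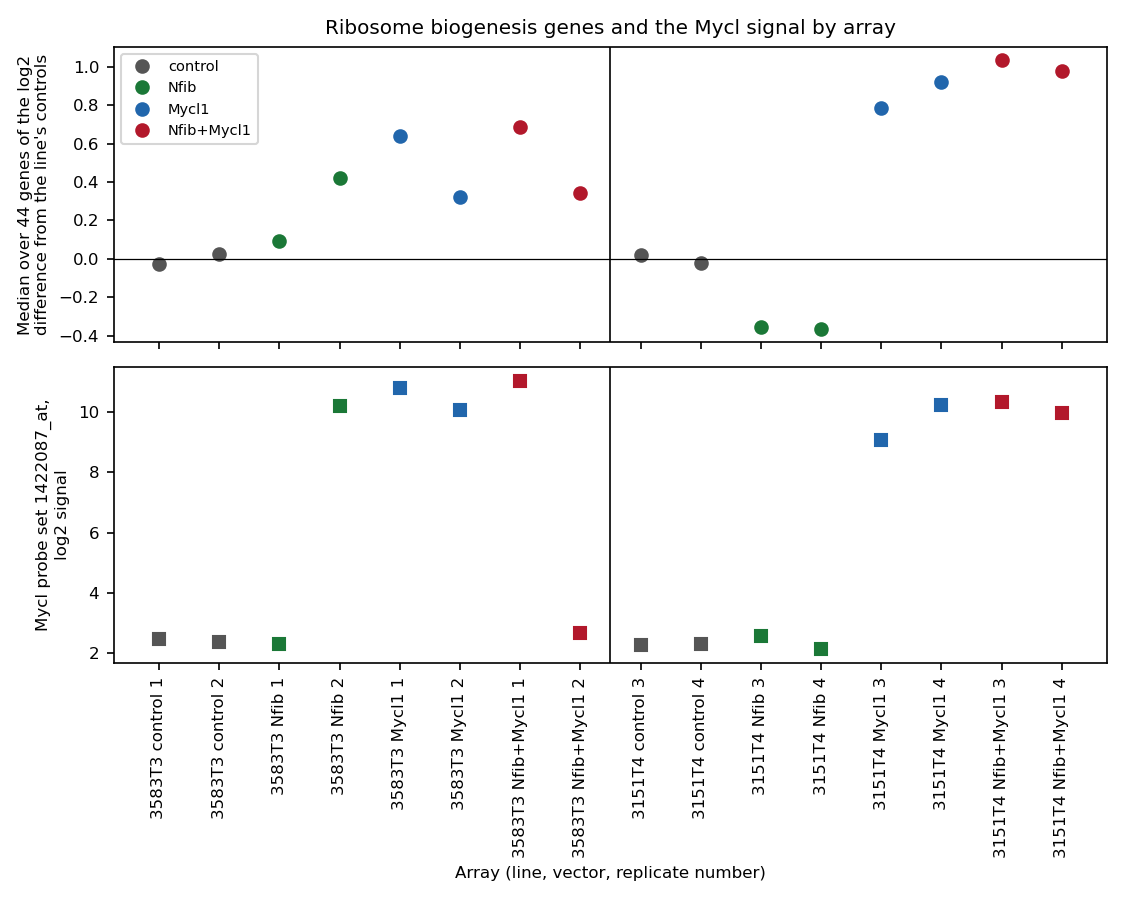
Median over the 44 genes of the log2 difference from the same line's controls (upper panel) and log2 signal of the Mycl probe set that follows the vector (lower panel) on each of the 16 arrays (horizontal axis), coloured by labelled vector. In 3583T3 the Nfib array with a Mycl signal of 10.22 has a median of 0.42 and the other Nfib array 0.09. The Nfib+Mycl1 array there with a Mycl signal of 2.67 has a median of 0.34 and the other Nfib+Mycl1 array 0.68.

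In 3151T4, where the Mycl signal of every array matched its label, the contrast with Nfib cells was the widest. The Mycl1 arrays lay above both Nfib arrays for 44 of 44 genes (36.8% of all genes), and so did the Nfib+Mycl1 arrays (44 of 44, against 33.0% of all genes). Mycl1 against Nfib gave 41 of 44 calls (15.8% of all genes called higher) and Nfib+Mycl1 against Nfib 41 of 44 (12.8%). Rrp9 differed by 2.52 ± 0.32 in the former and 2.32 ± 0.32 in the latter, and Pum3 by 2.15 ± 0.16 and 2.13 ± 0.16. In 3583T3 the same comparisons called 0 of 44 by limma. At an unadjusted p under 0.05 were 6 (Mycl1) and 16 (Nfib+Mycl1), against 21.3% and 15.5% of all genes. Of all genes 2.76% were called higher for Mycl1 against Nfib and 0.0% for Nfib+Mycl1 against Nfib. Without the 2 arrays against their labels 5 (4.31% of all genes) and 2 (1.78%) of the 44 were called higher. The difference between lines was called for 22 genes (5.62% of all genes called lower in 3583T3) for Mycl1 against Nfib and for 20 (2.54%) for Nfib+Mycl1 against Nfib, all smaller in 3583T3. Without the 2 arrays the counts were 15 (5.18%) and 9 (1.6%). The largest were Rrp9 at -2.13 ± 0.45 for Mycl1 against Nfib and Polr1b at -2.17 ± 0.45 for Nfib+Mycl1 against Nfib.

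The lines also differed in level. Over all vectors 21 of the 44 genes were called higher in 3583T3 than in 3151T4 (27.7% of all genes) and 2 lower (30.9%), with a median of 0.36. On the control arrays alone 17 were higher (18.9% of all genes) and 0 lower (21.2%), with a median of 0.43, led by Pprc1 (1.59 ± 0.24), Rrp12 (1.48 ± 0.26) and Pum3 (1.45 ± 0.16). On the Nfib arrays 36 were higher (18.1% of all genes). On the Mycl1 arrays 2 were higher (Pprc1 and Pum3) and 3 lower (Wdr12, Imp4 and Ddx56), against 14.5% and 17.3% of all genes, with a median of 0.07. On the Nfib+Mycl1 arrays 3 were higher and 2 lower (14.2% and 15.8% of all genes), with a median of -0.04. Imp4, a processome protein of the Brix family, read 7.94 and 8.03 in 3583T3 control cells and 8.31 and 8.63 in 3151T4, the opposite order of most of the 44.

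Of the 44 genes, 23 had a further probe set, and the next brightest was tested in place of the first. The tests come from a fit over all probe sets, and the share of all probe sets called in it is not given. All 23 had the same sign for Mycl1 against control, 11 were called higher and 0 lower, with a median of 0.74. For Nfib+Mycl1 against Nfib, 15 were called higher and 0 lower, and all had the sign of the first except that of Ddx21, which was called higher (1.41 ± 0.27, adjusted p = 0.0121 over all probe sets) where the brightest differed by -0.004 ± 0.15.

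Other genes of the pathway, listed by role with earlier results known, were called in part too. Between Mycl1 and control cells 3 of 12 other RNA polymerase I genes were called higher, 13 of 38 other small subunit factors, 12 of 34 other large subunit factors, 5 of 10 other snoRNP genes and 6 of 10 exosome subunits, beside the 6.63% of all genes called higher, and 0 of these were lower. Among them were Polr1e, a polymerase subunit (0.90 ± 0.22, adjusted p = 0.0228), and Tcof1, treacle, a regulator of RNA polymerase I (0.95 ± 0.28, adjusted p = 0.0434). Further examples were Noc3l of the large subunit (1.36 ± 0.27, adjusted p = 0.0114), the processome protein Pwp2 (1.17 ± 0.25, adjusted p = 0.0153), Ruvbl1, an ATPase that helps assemble snoRNPs (1.01 ± 0.18, adjusted p = 0.00563), and the exosome subunit Exosc5 (1.26 ± 0.27, adjusted p = 0.0153). The medians of the 5 lists lay between 0.37 and 0.60.

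The cytosolic ribosomal proteins, which these factors assemble into subunits, were listed too. The median log2 signal of the 43 with a probe set lay between 12.27 and 13.20 on every array. GCRMA compresses very high signals, and the part of signal level in these counts was not tested. Between Mycl1 and control cells 1 of 41 was called higher (6.63% of all genes), Rps25 at 0.68 ± 0.20 (adjusted p = 0.0416), with a median of 0.13, and 40 of 41 differences were positive. Between Nfib+Mycl1 and control cells 24 of 41 were called higher (16.3% of all genes), with a median of 0.41, and between Nfib+Mycl1 and Nfib cells 18 of 41 (8.89%), with a median of 0.32.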

How the data were processed

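For each of 16 Affymetrix arrays the authors deposited 1 log2 value per probe set. The submitters' processing notes name GCRMA (version 2.20.0) and R (version 2.11.0), and the log2 scale was inferred from the values. GCRMA corrects background, normalizes by quantiles and summarises probes, which compresses very low and very high signals. Input was 100 ng total RNA, amplified with NuGEN Ovation V2, per the labels' protocols.

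Control probe sets (64) were left out, and genes were named from the 20380 of 22690 probe sets with 1 symbol. Probe sets above log2 4 on at least 2 arrays were kept, and the probe set with the highest mean stood for each gene (8777 of 12393 genes). Here limma (version 3.58.1, under R 4.3.3) served for all fits, with eBayes and a mean-variance trend: 4 vectors plus line (11 residual degrees of freedom), and 8 means (8 residual degrees of freedom) for changes within lines and their difference. P-values were Benjamini-Hochberg adjusted over all 8777 genes, and the scripts were tested on simulated data.

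The members, the lists, the named genes and the alternatives were chosen with earlier results of these data known. Any member may be named, and values per array were given for up to 4 genes per role with the smallest p between Mycl1 and control, plus Polr1a, Polr1b, Fbl, Ncl, Npm1, Pes1 and Nle1. Those of Rrp9, Pum3, Heatr1, Nop2, Wdr12, Imp4, Ebna1bp2 and Grwd1, and those of single further probe sets, were added after their values were seen. From each other list the genes with the smallest p were named. Alternatives were the filter, the probe set, the scaling, the trend, the model, the arrays in the fit, averaged replicates, a replicate block and leaving out arrays.

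Replicate numbers were not used as pairs, since the deviations of same-numbered arrays of a line did not correlate in a common direction (closing section). The number of arrays limits the precision.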

Additional observations from a re-analysis of the deposited data

Results flagged for a closer look

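For 7 combinations of gene and vector, the change against control differed between the lines by the test of that difference (limma, adjusted over all 8777 genes). Differences are 3583T3 minus 3151T4 on the log2 scale. With Nfib, the change was larger in 3583T3 for Nop2 (1.23), Wdr12 (1.13), Ftsj3 (1.11) and Heatr1 (1.04). Nop2 and Heatr1 were called lower with Nfib in 3151T4, and Wdr12 was called higher with Nfib in 3583T3. With Mycl1, the change was smaller in 3583T3 for Pum3 (-0.99). With Nfib+Mycl1, it was smaller in 3583T3 for Nhp2 (-1.01) and Grwd1 (-1.03). Grwd1 read 10.56 and 10.18 in 3583T3 control cells and 10.50 and 10.46 with Nfib+Mycl1, and 9.51 and 9.95 against 10.70 and 11.04 in 3151T4. The values with Nfib and Nfib+Mycl1 each rest on 1 of the arrays whose Mycl signal went against the label, and its part in them was not tested beyond leaving both arrays out: then Nop2 and Ftsj3 were called with Nfib, Pum3 and Nhp2 with Mycl1, and 0 genes with Nfib+Mycl1 by limma.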

How the results depend on the processing

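No called gene changed sign under the alternatives tried for the 5 comparisons with calls over both lines, but counts of calls moved. For Mycl1 against control (22 calls) the count was 14 without the filter on dim probe sets, 14 with centring on array medians, 37 with 8 means, 36 with only the groups compared, 35 without the 2 arrays against their labels and 0 with replicates averaged. With replicates averaged it was 3 for Nfib+Mycl1 against control, 0 for Nfib+Mycl1 against Nfib, 0 for Mycl1 against Nfib and 11 for the lines. That fit has 8 values and few residual degrees of freedom. With only the groups compared it was 19 for both Nfib+Mycl1 against Nfib and Mycl1 against Nfib. With 8 means it was 1 for Nfib against control. For the difference between lines, Nfib gave 7 with a second quantile normalization and 2 without the 2 arrays, Mycl1 gave 0 with every probe set tested and 2 without the 2 arrays, and Nfib+Mycl1 gave 0 without the 2 arrays. Replicates averaged leave no residual degrees of freedom for that difference, so it was not run.

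Same-numbered arrays of a line had deviations that correlated between -0.74 and 0.31, with both signs, so the numbers were not used as pairs. The -0.74 was between 3583T3 Nfib and 3583T3 Nfib+Mycl1, the groups that hold the 2 arrays against their labels. In 3151T4 the correlations lay between -0.10 and 0.31. With the replicate block the count was 6 for Mycl1 against control, and 2, 0 and 1 for the difference between lines with Nfib, Mycl1 and Nfib+Mycl1. The other counts over both lines stayed within 1.5 times.

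Leaving out each array in turn gave 1 to 31 calls for Mycl1 against control, 19 to 37 for Nfib+Mycl1 against control, 0 to 37 for Nfib+Mycl1 against Nfib, 13 to 37 for Mycl1 against Nfib and 20 to 29 for the lines. It gave 1 to 9, 0 to 1 and 0 to 3 for the difference between lines with Nfib, Mycl1 and Nfib+Mycl1. The cause of these shifts was not tested, and no share of all genes was set beside them. With 2 arrays per group, genes near the threshold cannot be ranked by their call.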
